A study of Drosophila melanogaster with 4 samples.

Results

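The subject is homothorax (hth; gene ID 41273, locus tag Dmel_CG17117), 1 gene of the 17872 rows of a RefSeq gene table on the dm6 assembly, matched by its symbol. It spans 132008 bp on 3R, from 10507561 to 10639568, and the table lists 5 transcripts for it. Peaks were taken from the gene span and 30 kb on either side, 3R from 10477561 to 10669568, called the hth window below. The gene was picked from these same lists because it held many peaks of Osa-GFP libraries. Its numbers of peaks and regions, their heights and the yw peaks beside them are therefore given as a description, with no test.

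The lists come from anti-GFP CUT&RUN, in which a nuclease tethered by an antibody cuts out the DNA around the antibody's target. All 4 libraries were from wing imaginal discs, the larval tissue that forms the wing and notum, of female Drosophila melanogaster at the third larval wandering stage raised at 25 °C. The genotype Osa-GFP (2 libraries) carries a GFP-tagged Osa, a subunit of the Brahma SWI/SNF nucleosome remodeler. The genotype yw (2 libraries) carries no GFP and was treated with the same rabbit anti-GFP antibody. The labels give the genotypes by these names alone, without the allele or the way GFP was joined to Osa. Each replicate pooled 20 to 22 whole discs, so cells that express hth and cells that do not lie in 1 library, and a peak cannot be placed in either. The labels do not say whether replicates came from separate crosses. Peak lists hold no expression values, so the labelled tissue was not checked against marker genes.

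Hth is a homeodomain protein of the Meis family, within the TALE class of homeobox genes. It binds the homeodomain protein Extradenticle (Exd) and carries it into the nucleus, where the pair acts with Hox proteins and other partners on target genes. In the growing wing disc Hth is kept in the proximal territory that forms the hinge and is lost from the pouch that forms the blade.

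Over the 6 main chromosome arms, Osa-GFP replicate 1 had 5820 called peaks and its second replicate 4987, while yw replicate 1 had 774 and its second replicate 4535. Depth was read from the background that the caller's folds imply, that is the average fragment coverage of a base. It was 0.472, 0.460, 0.120 and 0.481 in the same order, so yw replicate 1 was the shallow library. The lowest summit called anywhere was 4 fragments high in both Osa-GFP libraries and in yw replicate 2, and 3 in yw replicate 1. A missing peak is thus a level under the calling limit and not a level of zero. In yw replicate 1, the 3 fragments of that limit correspond to 12 fragments at the depth of yw replicate 2.

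The hth window held many more called peaks of Osa-GFP libraries than of yw libraries. The Osa-GFP lists had 38 (replicate 1) and 33 (replicate 2), and the yw lists had 3 (replicate 1) and 20 (replicate 2). Both Osa-GFP libraries lay above both yw libraries. As a share of each library's whole list these were 0.653%, 0.662%, 0.388% and 0.441%. The order was not kept among the strongest peaks: with every list cut to its best 774, an alternative chosen after seeing the data, 4 peaks were left in each Osa-GFP library, 3 in yw replicate 1 and 5 in yw replicate 2. Peaks covered 8.40% and 8.05% of the window in the Osa-GFP libraries, against 0.289% and 2.61% in yw replicates 1 and 2. With 2 libraries against 2, a two-sided exact permutation test cannot give a p under 0.33, and none was run on these counts.

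**Figure D1:**
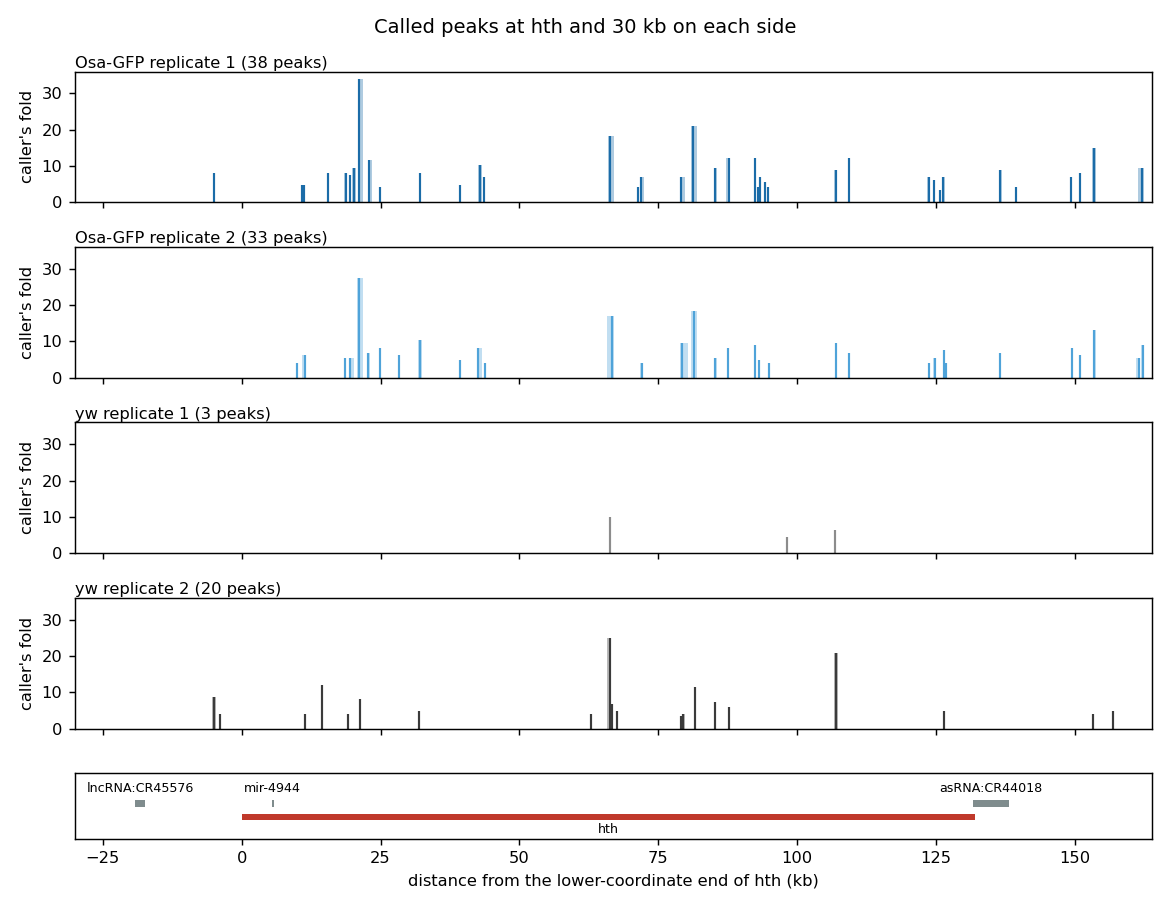
Called peaks along hth in the 4 libraries. The x axis is the distance from the lower-coordinate end of hth in kb, the y axis is the caller's fold, lines stand at summits, shaded boxes show peak widths, and the lowest panel shows annotated genes. The 38 and 33 Osa-GFP peaks are spread through the gene and its higher-coordinate flank, while the lower-coordinate flank is nearly empty in every library.

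In the Osa-GFP lists, peaks at hth had a larger median width than the whole list. It was 375.5 bp in Osa-GFP replicate 1 and 372 bp in replicate 2, where the whole lists had medians of 266 and 268 bp. In yw replicate 2 it was 162.5 bp, against 209 bp over its whole list. The widest Osa-GFP peak at hth was 1509 bp, in replicate 2, and the widest yw peak 598 bp, in yw replicate 2. The larger width was not seen where both Osa-GFP libraries had a peak. Overlapping peaks joined there had a median width of 490 bp at hth and 510 bp across the genome.

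Overlapping peaks of the 4 libraries were joined into regions, 9599 across the genome, of which 47 lay in the hth window. Both Osa-GFP libraries had a peak in 29 of them, 61.7% of the window's regions, where 34.8% of all regions did. There were 18 Osa-GFP-specific regions, which had both Osa-GFP libraries and neither yw library (background 18.4%). Another 11 were shared, having both Osa-GFP libraries and at least 1 yw library (background 16.4%). A further 11 regions held a peak of just 1 Osa-GFP library (background 38%), 8 of replicate 1 and 3 of replicate 2, and 1 of these also held a yw peak. The other 7 regions were yw-only (background 27.2%), 6 from yw replicate 2 and 1 from yw replicate 1. With peaks of −log10 q (the caller's significance after correction) under 10 removed, 7 specific and 3 shared regions were left, and with equal lists 2 of each. Without yw replicate 2 there were 27 specific and 2 shared. Since hth was chosen for its Osa-GFP peaks, nothing is read from the distance between these counts and their backgrounds. Of the regions with both Osa-GFP peaks, 37.9% also had a yw peak at hth and 47.2% did so across the genome.

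The regions with both Osa-GFP peaks lay mostly inside the gene. There were 24 within the hth span, 14 specific and 10 shared. The flank beyond the higher-coordinate end held 5, of which 4 were specific, and the flank beyond the lower-coordinate end held none. They covered 18977 bp in all. None was centred within 500 bp of either gene end: the nearest centre was 4641 bp from an end, the median 25045 bp and the farthest 65593 bp. At the lower-coordinate end the first of these regions began 10923 bp into the gene. At the higher-coordinate end the closest ones stood 5293 bp inside and 4348 bp outside. The gene table used here gives no strand and no exons, so promoters, introns and exons were not told apart.

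Counted in 10 kb segments, the Osa-GFP summits formed groups separated by empty stretches. Segments from 10 to 30 kb into the gene held 9 summits of Osa-GFP replicate 1 and 7 of replicate 2, and those from 70 to 100 kb held 11 and 8. By contrast, the segments from 50 to 60 kb and from 110 to 120 kb held no summit of any library. The longest stretch between neighbouring regions of both Osa-GFP libraries was 21961 bp, from 43.9 to 65.8 kb into the gene, with 1 yw replicate 2 peak in it. The next was 13826 bp, from 109.6 to 123.4 kb, with no peak of any library. From 30 to 10 kb outside the lower-coordinate end, a stretch that includes lncRNA:CR45576, no library had a summit.

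**Figure D2:**
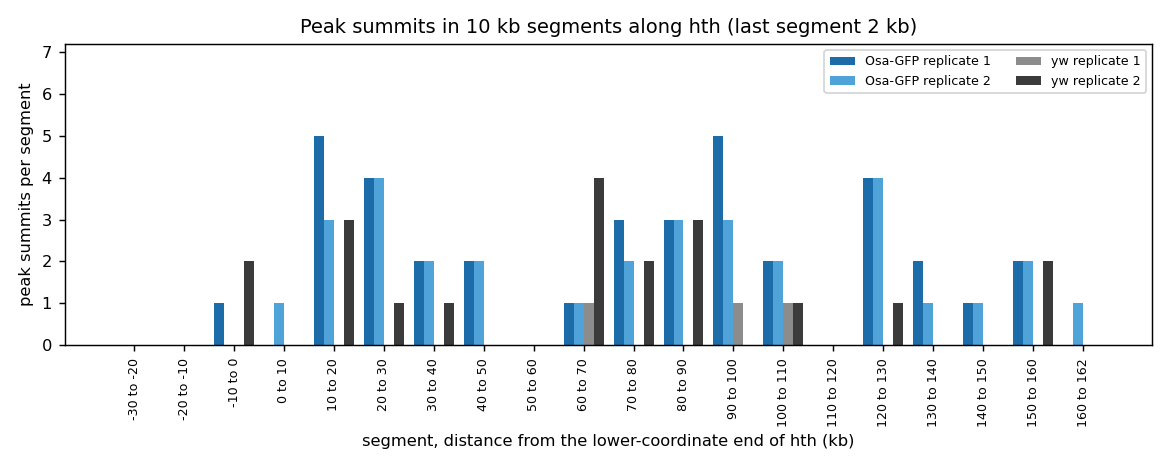
Peak summits per 10 kb segment along hth. The x axis gives each segment's distance from the lower-coordinate end of the gene in kb, and the y axis the number of summits, with 1 bar per library; the last segment is shorter. Counts reach 5 in Osa-GFP replicate 1 at 10 to 20 kb and at 90 to 100 kb, and are 0 in every library at 50 to 60 kb and 110 to 120 kb.

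Joined wherever they lay within 5000 bp of each other, the 29 regions made 11 runs. The run with most regions had 7, 3 specific and 4 shared, over 16128 bp from 10586485 to 10602612. The next had 5, of which 4 were specific, over 6810 bp from 10525906 to 10532715. Single regions made up 4 runs, 2 of them specific.

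The highest Osa-GFP summits at hth all lay in regions where yw replicate 2 also had a peak. Regions were ordered by the worse of their ranks in the 2 Osa-GFP lists, and the first 4 were shared. Summit heights are given below as fragments, worked back from the caller's fold.

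The strongest region of hth, at 3R from 10528272 to 10529357, was 21.3 kb into the gene. Its summit reached 49 fragments in Osa-GFP replicate 1 and 39 in replicate 2, with 11 in yw replicate 2 and no peak called in yw replicate 1. Both Osa-GFP summits were well above the yw summit. They ranked 64 and 59 in their lists. The summits of the 2 Osa-GFP libraries stood 4 bp apart, and that of yw replicate 2 stood 230 bp from that of Osa-GFP replicate 1.

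The second region was 10588460 to 10589629, 81.5 kb into the gene, with 30 fragments in Osa-GFP replicate 1, 26 in its partner and 16 in yw replicate 2. The Osa-GFP libraries were again the higher ones. Its ranks were 260 and 222. The fourth region was in the flank, 10660746 to 10661404, 21507 bp beyond the higher-coordinate end. It had 21 and 18 fragments in the Osa-GFP libraries and 5 in yw replicate 2, close to the lowest summit that library called anywhere.

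By the highest summit of each library, the third region had the opposite order. At 10573388 to 10574561, 66.4 kb into the gene, summits were 26 and 24 fragments in the Osa-GFP libraries, 10 in yw replicate 1 and 36 in yw replicate 2. By fragments not scaled for depth, the control library of like depth was the highest of the 4. Its summit ranked 85 in the yw replicate 2 list. That summit stood 12 bp from that of Osa-GFP replicate 1 but 375 bp from that of Osa-GFP replicate 2. A second yw replicate 2 peak of the region reached 9 fragments. Its summit at 10574221 was nearer the Osa-GFP replicate 2 summit, at 10574188. A weaker region at 10614298 to 10614875 showed the same order, with 12 and 13 fragments in the Osa-GFP libraries, 6 in yw replicate 1 and 30 in yw replicate 2. These were the 2 regions of the window with both Osa-GFP peaks in which yw replicate 1 had a peak too.

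Among the 11 shared regions, taking each library's highest summit, the yw replicate 2 summit was lower than both Osa-GFP summits in 8, higher than both in 2 and between them in 1. Across the genome it was lower than both in 928 of 1550 such regions (59.9%) and higher than both in 358 (23.1%). These counts set summit heights of separately called lists of similar depth side by side and were not tested. Only 3 of the 11 had a yw replicate 2 summit above the 12 fragments that correspond to the limit of yw replicate 1, and yw replicate 1 held a peak in 2 of those 3 and in 0 of the other 8. That few regions had peaks of both yw libraries cannot be told apart from the low depth of yw replicate 1.

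**Figure D3:**
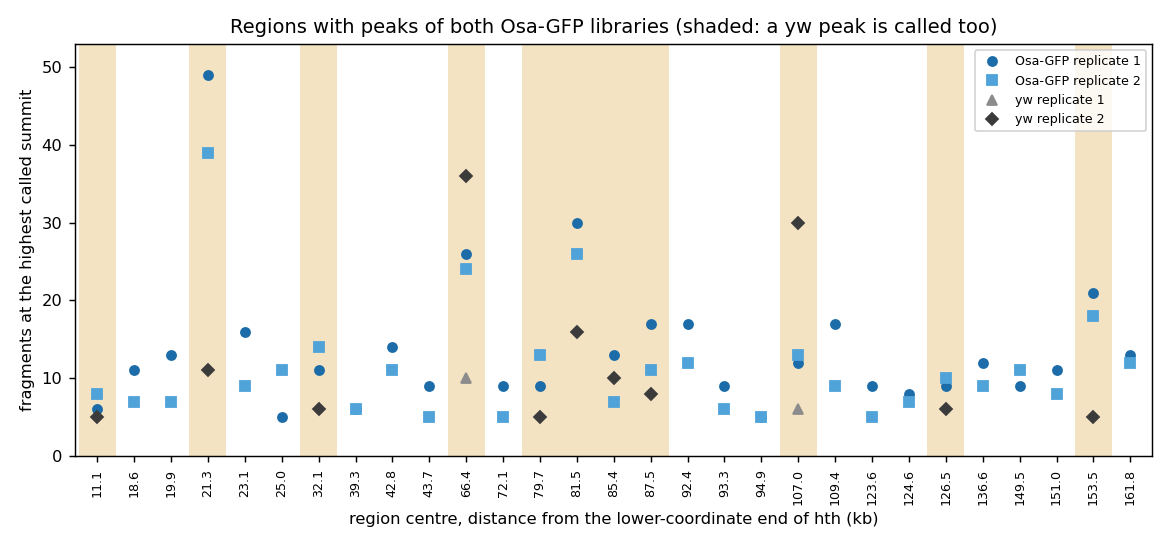
Summit height in the 29 regions of hth with peaks of both Osa-GFP libraries. The x axis is the region's centre in kb from the lower-coordinate end of the gene, the y axis the fragments at the highest called summit, symbols stand for the 4 libraries, and shading marks regions where a yw peak was called. The tallest Osa-GFP pair, 49 and 39, is at 21.3 kb. At 66.4 and 107.0 kb yw replicate 2 has the most fragments, which are not scaled for depth.

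The Osa-GFP-specific regions were lower. Over the 18, summits ran from 5 to 17 fragments with a median of 10 in Osa-GFP replicate 1, and from 5 to 12 with a median of 7.5 in replicate 2. In the 11 shared regions they ran from 6 to 49 (median 13) and from 7 to 39 (median 13). The ranges of the 2 classes overlapped in both libraries. The split into specific and shared uses the yw lists, so a weak region whose yw signal stayed under the limit counts as specific.

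The best specific region was 10599794 to 10600102, 39620 bp from the nearer gene end, with 17 and 12 fragments in Osa-GFP replicates 1 and 2. The second, 10668648 to 10670066, crosses the edge of the window and is centred 29789 bp beyond the gene, with 13 and 12. The third was 10549890 to 10550868, 42.8 kb into the gene, with 14 and 11. Replicate 1 was the higher library in each. The following 3 were tied in order: 10530301 to 10531070 with 16 and 9 fragments, 10616728 to 10617158 with 17 and 9, and 10643916 to 10644502 with 12 and 9. Replicate 1 was again higher in all 3. The last of them lies outside hth but inside asRNA:CR44018, an antisense RNA gene of 6495 bp that overlaps the higher-coordinate end of hth. The microRNA gene mir-4944 inside hth held no peak.

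Completing the 13 highest-ranked regions were 2 more shared ones. The region at 10594748 to 10595355 had 17 and 11 fragments in the Osa-GFP libraries and 8 in yw replicate 2, and that at 10539308 to 10540023 had 11, 14 and 6. In both, the yw summit was the lowest called. The remaining 16 regions, 12 specific and 4 shared, had summits of 5 to 13 fragments in Osa-GFP replicate 1 (median 9) and 5 to 13 in replicate 2 (median 7). The 4 shared ones had 5 to 10 in yw replicate 2.

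The edge of the window was a matter of the rule. The nearest region with both Osa-GFP peaks beyond it on the lower-coordinate side, 10473677 to 10474697, was shared and stood 32863 bp from the gene, with 16 and 10 fragments in the Osa-GFP libraries and 8 in yw replicate 2. On the higher-coordinate side the nearest was 10673682 to 10674139, specific and 34113 bp from the gene, with 9 and 6. The last region inside the window on that side was the specific one at 10668648, above, and the lower-coordinate flank inside the window had none.

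Specific regions overlap no yw peak by definition, and most stood more than 1000 bp from one, at hth and across the genome. This distance also depends on how many peaks the yw lists hold. The distance to the nearest yw peak had a median of 3585.5 bp at hth and 4546 bp over all specific regions. At hth it ran from 24 to 11512 bp. It was 1000 bp or less for 2 of the 18 (11.1%), and for 20.0% of the 1765 specific regions of the genome. The 2 were neighbours on either side of a yw replicate 2 peak, at 10525906 to 10526358 and 10526898 to 10528121, in the run that holds the strongest region of the gene.

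Peaks of the 2 Osa-GFP libraries mostly met each other at hth. Of the 38 peaks of Osa-GFP replicate 1, 30 overlapped a peak of replicate 2, or 78.9% (95% Wilson interval 63.7% to 88.9%, counting error only), where 60.3% of its whole list did. By comparison 11 of the 38 overlapped yw replicate 2, or 28.9% (17.0% to 44.8%; 32.9% of the whole list), and 2 overlapped yw replicate 1 (5.72% of the whole list). Of the 33 peaks of Osa-GFP replicate 2, 30 overlapped replicate 1 (71.6% of the whole list). Of the 20 peaks of yw replicate 2, 13 overlapped Osa-GFP replicate 1, or 65.0% (43.3% to 81.9%), against 44.9% of its whole list. Neighbouring peaks are not independent, and the locus was chosen for these peaks. The intervals are therefore no test of a difference from the whole lists.

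Peaks without a partner were low and narrow. The 8 peaks of Osa-GFP replicate 1 that met none of replicate 2 had 4 to 11 fragments, a median fold of 4.42 and a median width of 143 bp. The 30 that did had 5 to 49 fragments, a median fold of 8.15 and a median width of 417 bp. The 3 peaks of replicate 2 without a partner had 5 to 8 fragments.

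Heights in the 2 Osa-GFP libraries ran together along the gene. Over the 29 regions, Spearman's rho between the 2 folds was 0.62 and Pearson's r of log2 folds 0.78, against 0.78 and 0.84 over all 3344 regions with both Osa-GFP peaks. The regions of a library share its depth and caller, so these are descriptions with no p. The fold was higher in replicate 1 in 20 of the 29, and the median ratio of replicate 1 to replicate 2 was 1.24 at hth and 1.16 over all such regions. Where a library had more than 1 peak in a region, its highest was used. In the region at 10526898 to 10528121 this set the summits 804 bp apart. There a lower peak of Osa-GFP replicate 1 had its summit at 10526998, near that of replicate 2 at 10526980. Summits of the 2 libraries were a median of 101 bp apart at hth and 55 bp apart over all such regions. They were within 100 bp of each other in 14 of the 29, against 67.8% of all.

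**Figure D4:**
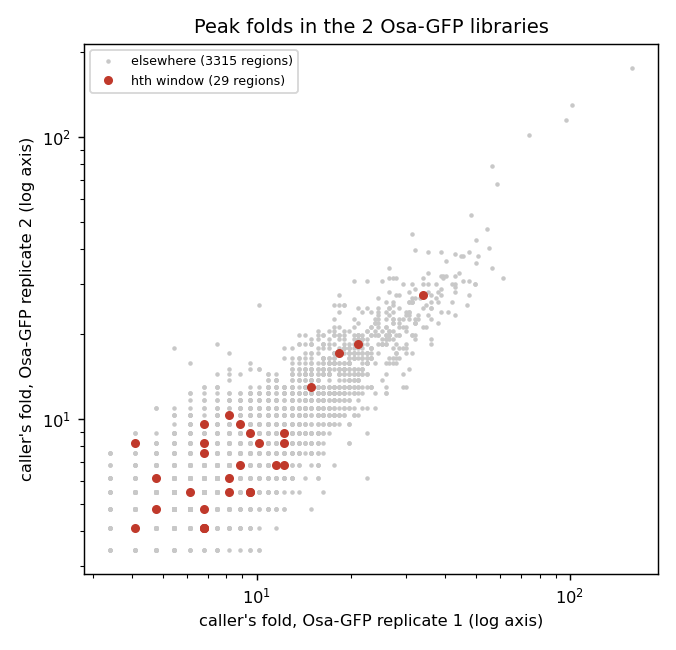
The caller's fold in the 2 Osa-GFP libraries for every region with peaks of both. Both axes are logarithmic, red points are the 29 regions in the hth window and grey points the 3315 elsewhere. Most hth regions are in the lower part of the range, and the strongest has folds of 34.0 and 27.4.

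The median Osa-GFP peak at hth was somewhat higher than that of its list, while the share of peaks in the top 10% was near 10%. The median fold at hth was 7.81 in Osa-GFP replicate 1 and 6.85 in replicate 2, against 6.12 and 6.16 over the whole lists. Of the window's peaks, 3 of 38 in Osa-GFP replicate 1 were in the top 10% of that list, 7.89%, and 3 of 33 in replicate 2, 9.09%. In yw replicate 2 it was 4 of 20. A −log10 q of 10 or more was reached by 19 of the 38 peaks (35.7% of the whole list) and by 13 of the 33 (32.5%). In yw replicates 1 and 2 it was reached by 1 of 3 (9.82%) and 5 of 20 (17.1%).

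By number, hth was first of the 13922 protein-coding genes on the main arms. Counting regions with both Osa-GFP peaks in each gene's span and 30 kb on either side, 55% of these genes had at least 1, the median was 1 and hth had 29. Within the span alone, where 7.41% of genes had any, hth had 24 and was first again. A long gene has more room, and by regions per 10 kb of window, 1.51 at hth, it was number 89. Windows of neighbouring genes overlap, so genes can share regions in this and the other ranks by window. Among the 83 genes that span 100 kb or more, hth was first by number, where the median was 4, and first by density, where the median was 0.180 per 10 kb. By yw-only regions it ranked 9 of the 83, with 7 against a median of 4. The rank by number was not kept when lists were made stricter: it was 13 with peaks of −log10 q under 10 removed, and 89 with every list cut to the length of the shortest.

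The genes with the next highest counts, each in a window apart from the others, were scribbler (sbb), a nuclear regulator of patterning, with 24, then the adhesion gene kirre and the SERTA-domain gene taranis (tara) with 22 each. The Hox gene Antennapedia (Antp) and CG33687 had 20 each, the corepressor gene Smr 19, the T-box gene bi and the kinase gene Tlk 18 each, and the protocadherin gene dachsous (ds) 17. Their make-up differed. Antp had 16 specific and 4 shared regions and ds 13 and 4, whereas Smr had 2 and 17 and Tlk 3 and 15. Regions of a window need not lie in the gene. CG33687, of 985 bp, had 0 of its 20 in its span and Smr 3 of 19, while sbb had 18 of 24 and Antp 16 of 20. hth, with 18 and 11, had the most specific regions of any gene and was number 10 by shared ones. Its rank by specific regions was 3 without Osa-GFP replicate 1, 2 without Osa-GFP replicate 2, 6 with peaks of −log10 q under 10 removed, 118 with equal lists and 129 per 10 kb of window.

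Likeness to hth was measured as the sum of absolute differences in the numbers of specific, shared and yw-only regions per window. The 5 nearest genes were sbb, tara and kirre, each at 13, and Antp and the junction scaffold gene polychaetoid (pyd), each at 14. sbb had 11 specific, 13 shared and 3 yw-only regions, tara 9, 13 and 5, and kirre 13, 9 and 13. Antp had 16, 4 and 2, and pyd 7, 9 and 6. kirre spans 394149 bp and tara 34679 bp, so these windows differ in length, and the counts were not tested between genes.

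**Figure D5:**
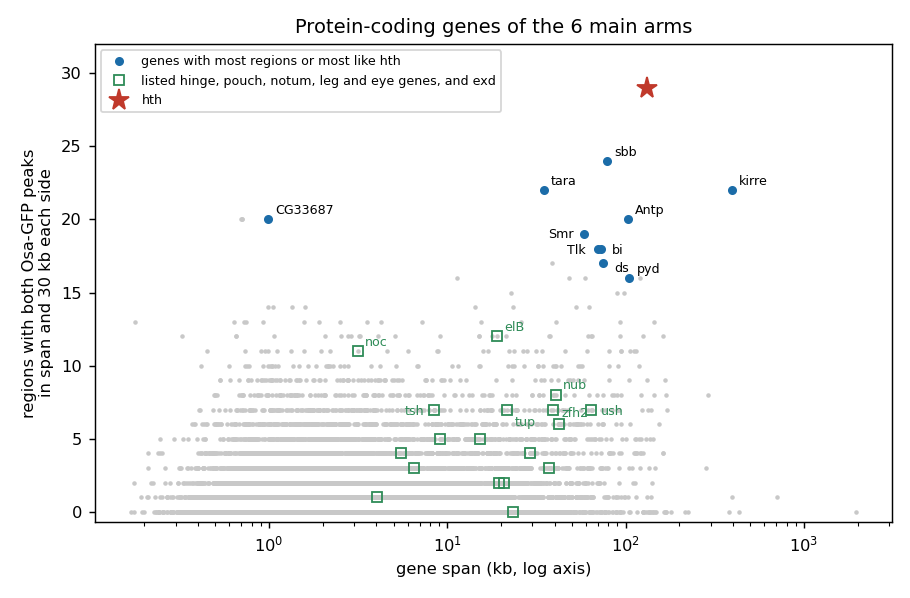
Regions with peaks of both Osa-GFP libraries against gene span for 13922 protein-coding genes. The x axis is the span in kb on a log scale, the y axis the number of regions in the span and 30 kb on each side, with 1 point per gene. hth stands at 29, sbb next at 24, and the 18 listed hinge, pouch, notum, leg and eye genes with exd between 0 and 12.

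A list of 18 other genes held regulators of the hinge, the pouch and the notum of the wing disc, of the leg and the eye, and exd. Each had fewer regions than hth, which follows from hth having the most of any gene. By regions per 10 kb of window, noc (1.74) and elB (1.52) lay above hth (1.51) and the others below it. Of the 18, 17 had at least 1 region with both Osa-GFP peaks in their window (background 55%), with a median of 5 and a range of 0 to 12. Among the hinge factors, the zinc finger gene teashirt (tsh) had 4 specific and 3 shared regions, its paralogue tiptop (tio) 1 and 2, and the zinc finger homeodomain gene zfh2 3 and 4. Of these 3, zfh2 had 6 of its 7 within the gene span, while tsh had all 7 outside it. At hth 24 of 29 were within the span.

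The exd gene, which encodes the partner that Hth takes to the nucleus, had no specific and 1 shared region in its window and none in its span of 4042 bp. The POU genes nubbin (nub) and pdm2, of the wing pouch, had 8 and 4 specific regions and no shared one; their windows overlap by 30971 bp, so a region there counts for both. The paired zinc finger genes elbow (elB) and no ocelli (noc) came highest in this list, with 12 and 11 regions. wg and vg, the Wnt and selector genes of the wing, had 5 each. The eye gene ey was the member with none.

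Other TALE class genes had lower counts than hth, which again follows from hth having the most of any gene. Of the 6 other TALE genes listed, all had at least 1 region with both Osa-GFP peaks in their window (background 55%). Their median was 3, and that of all protein-coding genes 1. The Iroquois genes ara, caup and mirr had 10, 8 and 4, with windows of ara and caup that overlap each other. The neighbouring genes achi and vis had 2 each, in windows that overlap by 59082 bp, so a region there counts for both. exd had 1. All 6 genes are much shorter than hth, at 16611 bp or less, and the difference was not tested.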

How the data were processed

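Peak lists of 4 anti-GFP CUT&RUN libraries (2 Osa-GFP, 2 yw) were used, 1 list per library, on build dm6. MACS2 2.1.2, Bowtie2 2.3.4.1, Picard 2.2.4, SAMtools 1.10 and deepTools 2.4.1 are named in the submitters' processing notes, with no roles. The peak names carry tags for trimming, duplicate removal and all fragment lengths and 1 library each, so replicates were not pooled. How the caller was run, its threshold included, is not given in the sources used here. Each deposited fold is the authors' ratio of summit fragments over background, the authors' own value for each peak. The deposited p and q are −log10 values. A deposited whole-number score repeats the q value and was left aside.

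From these, fragments were recovered with fold = (fragments + 1) / (background + 1), and 100% of peaks came out whole within 0.01. Peaks overlapping by 1 bp or more were merged, and regions were assigned by overlap to hth with 30 kb of flank. Starts and summits are 1-based. Gene spans came from RefSeq (Release 6 assembly, without strand or exons). The steps were tested on simulated data, with Python 3.11.15, pandas 2.3.3 and SciPy 1.17.1.

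No test was run between genotypes. Regions described singly are those up to place 12 by the worse of the 2 within-list ranks, with ties 13. Named genes are the overlapping genes, listed hinge, pouch, notum, leg, eye and TALE genes with exd, the 10 genes with most regions and the 5 most like hth; listed genes not singled out were counted. The gene, its rule and the lists were chosen with earlier results of these data known. The replicates' spread may be technical. No genome sequence was used, so no motif search was run and no sequence is shown. Alternatives were peak thresholds, overlap rules, flanks and leaving out each library.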

Additional observations from a re-analysis of the deposited data

How the results depend on the processing

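All alternatives were planned but the counts of peaks per library with equal lists. Of the values under them, 54 stayed within 1.5 times the main count or inside its interval and 28 moved; the cause was not tested beyond what each setting removes. The 18 Osa-GFP-specific, 11 shared, 7 yw-only and 29 regions with both Osa-GFP peaks became 7, 3, 1 and 10 with peaks of −log10 q under 10 removed. With 774 peaks per list they became 2, 2, 4 and 4, and the 38, 33 and 20 peaks of Osa-GFP replicates 1 and 2 and yw replicate 2 became 4, 4 and 5. At a −log10 q of 5 or more, shared regions became 6 and yw-only regions 1. Shared regions became 2 if a peak in each yw library was required. Leaving out a library gave 18 to 27 specific regions (27 without Osa-GFP replicate 2, and 27 without yw replicate 2), 2 to 11 shared, 1 to 8 yw-only and 29 to 38 regions with peaks of the Osa-GFP libraries kept; the lowest shared and yw-only counts were without yw replicate 2. The first rank of hth by regions with both Osa-GFP peaks became 13 at a −log10 q of 10 or more, 89 with equal lists and 89 per 10 kb of window. Its first rank by specific regions became 6, 118 and 129 in the same order. Leaving out a library gave ranks of 1 to 2 (2 without Osa-GFP replicate 2) and of 1 to 3 (3 without Osa-GFP replicate 1, 2 without Osa-GFP replicate 2). The 78.9% of Osa-GFP replicate 1 peaks that met replicate 2 became 52.6% (10 of 19) at a −log10 q of 10 or more and 100% (4 of 4) with equal lists, and the 28.9% that met yw replicate 2 became 50% (2 of 4) with equal lists. Depth limits what a missing peak of yw replicate 1 can show. No paired analysis was possible because peak lists give no value at every position in every library and no fit across libraries was made.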

Other observations

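Peaks of the control libraries at hth that met no Osa-GFP peak numbered 7. The highest, at 3R from 10521868 to 10522023, 14.4 kb into the gene, reached 17 fragments in yw replicate 2 and ranked 354 of that library's 4535 peaks. The other 6 reached 4 to 6 fragments. The region nearest outside the lower-coordinate end that held an Osa-GFP peak, 10502248 to 10502845, had 11 fragments in Osa-GFP replicate 1, no peak in Osa-GFP replicate 2 and 12 fragments in yw replicate 2. With the flanks widened to 50 kb, 35 regions with peaks of both Osa-GFP libraries were found in place of 29, of which 22 were Osa-GFP-specific and 13 shared.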
